A study of Mus musculus with 8 samples.

Results

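A set of 701 m6A peaks called in doxycycline-treated (Dox) mouse embryonic stem cells (ESCs) lay in transcripts that also carried an m6A peak in the DMSO control, but at other positions of the transcript. They were chosen from the Dox peak list by 2 conditions. No base of a peak's exon blocks was shared with a DMSO peak on the same strand, and at least 1 base lay in exons of a GENCODE M21 gene (genome build mm10, GRCm38) that carried a DMSO peak elsewhere. Of the 13001 Dox peaks, 951 (7.31%) shared no base with a DMSO peak, and 701 of these 951 (73.7%, 95% interval 70.8 to 76.4) met the second condition, which is 5.39% of the Dox list. The other 250 Dox-only peaks lay in genes without a DMSO peak or outside annotated exons, and 12050 Dox peaks were shared with the DMSO list. The 701 are called new peaks below. Since overlap chose them, their number, their distance from DMSO peaks and their scores are a description, and no test was made on them.

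The libraries came from the E14 ESC line of the 2C-tdTomato system, in which every group carried a Dox-inducible Dux transgene and a tdTomato transgene under the Mervl promoter. Cells received DMSO, the solvent, or Dox for 24 h, and RNA pulled down with an anti-m6A antibody (IP) and unselected RNA (input) were sequenced from each treatment. There were 8 libraries, 2 replicates each of IP and of input RNA for DMSO and for Dox, which made 4 groups. The DMSO cells are a parallel culture, not the same cells at an earlier time, and Dox cultures are mixtures of induced and uninduced cells, since no sorting was stated. The deposited peaks were 1 list per treatment with the replicates already combined, so no value has a replicate error, and all intervals are 95% intervals of counting error. Peaks of the same gene share their RNA and are not replicates of the treatment.

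N6-methyladenosine is placed on nascent mRNA by the METTL3–METTL14 methyltransferase complex with adaptors such as ZC3H13, mostly within a DRACH sequence (D is any base but C, R is A or G, H is any base but G), of which GGAC is the most favoured core. The mark is densest near the stop codon and in long internal exons, and it is read by YTH-domain proteins that can direct the transcript to decay. A transcript usually has several DRACH sites, so a peak list can differ between conditions within a transcript as well as between transcripts. Dux is a transcription factor of the 2-cell (2C) embryo that switches on Zscan4 genes and other 2C transcripts in ESCs.

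The sequences below are windows of at most 30 bases around the first GGAC of new peaks with a high score, a large distance from any DMSO peak, or a place in a 2C gene, a 2C repressor or the CCR4-NOT complex. They are given 5′ to 3′ on the strand of the transcript, read from the GRCm38 reference genome, with GGAC in capitals. The peaks of Rpl36 and Trim28 were 25 nt long and are given whole; they held no GGAC.
Zscan4c, chr7:11006818-11006847 (+): ctgggcactgcaaGGACaagtatgctttga
Zscan4b, chr7:10903924-10903953 (-): ctgggcactgcaaGGACaagtatgctttga
Zscan4f, chr7:11399011-11399040 (+): ctgggcactgcaaGGACaagtatgctttga
Zscan4d, chr7:11165057-11165086 (-): ttgggcactgcaaGGACaagtatgctttga
Zscan4d, chr7:11166094-11166123 (-): cttgaagttcactGGACaaagaggtgaggt
Zscan4b, chr7:10905012-10905041 (-): agagccaaggcagGGACacacagtgcctcc
Gm4027, chr12:87618904-87618933 (+): gacataggcaagaGGACatccgacctaggc
Atf2, chr2:73850618-73850647 (-): aaacaactcaccaGGACagccctttacctc
Atf2, chr2:73845494-73845523 (-): acatcttcctaatGGACaaaccatgcccgt
Atf2, chr2:73863213-73863242 (-): acagataaaacacGGACctgtggaatatga
Robo1, chr16:72742270-72742299 (+): aaagagtggagacGGACaaagatgacccgc
Cnot10, chr9:114639999-114640028 (-): tcccccgccggtaGGACtcaccaccagccc
Rpl36, chr17:56613678-56613928 (+, spliced): gggcgcctcaccaaacacaccaagt
Trim28, chr7:13024933-13024957 (+): gcctgcggcccgagcgggatcctcg
The windows of Zscan4b, Zscan4c and Zscan4f were the same 30 bases, so reads from these neighbouring gene copies can be assigned to any of them. Of the 701 new peaks, 70 (9.99%, 7.98 to 12.4) had a second match in the genome, defined as 98% identity or more along 90% or more of their length. Peaks over an exon junction were searched as spliced sequence, so for them copies that hold the intron could be missed.

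The new peaks were short and low in score. Their median length was 25 nt (quartiles 25 and 50 nt), which is the smallest unit in the list, and 409 of 701 (58.3%, 54.7 to 61.9) were 25 nt long, against 13.8% (13.2 to 14.5) of the shared Dox peaks, whose median length was 150 nt. Only 9 new peaks were longer than 200 nt, and all 701 held 35095 of the 2461438 exonic bases in the Dox list. The score of the deposited list, read from its values as a −log10 p-value, ran from 10.0008 to 38.1. Its median was 10.6, beside a median of 11.6 for shared peaks. It was under 11 in 486 new peaks (69.3%, 65.8 to 72.6) and in 27.8% (27.0 to 28.6) of the shared peaks, and no peak of either list scored under 10. A score of 15 or more was reached by 13 new peaks. A peak that falls just short of the threshold in 1 list and passes it in the other counts as new in the same way as a site without any signal, and these cannot be told apart from the lists. Other limits of the same kind stand at the edge of the rule. There were 183 shared Dox peaks longer than 25 nt that had 1 to 25 bases in a DMSO peak, with a median length of 50 nt and a median score of 10.7, while the 108 new peaks that touched a DMSO peak without sharing a base had a median of 25 nt and 10.5.

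Most of the 10 best-scoring new peaks lay in the 5′ part of 2C transcripts, whose DMSO peaks lay further 3′. The others of the 10 were in Atf2, Gm4027 and Rpl36. The Zscan4 genes encode zinc-finger proteins with a SCAN domain that are hallmarks of the 2C state. Zscan4c had a new peak of 325 nt with the score 38.1 at chr7:11006577-11006901, in its coding sequence and 150 exonic nt 5′ of the first DMSO peak, and a second of 75 nt (10.7) in the 5′ UTR. In Zscan4d, 3 new peaks of 72, 225 and 150 nt scored 37.3, 14.2 and 24.4, and the gene's single DMSO peak was a 25-nt stretch with the score 10.7 that lay 1600, 1350 and 1075 nt further 3′. Zscan4b had 3 new peaks, of 100 nt (20.2), 175 nt (17.5) and 150 nt (20.6), all 5′ of its 4 DMSO peaks. Zscan4f had 1, of 350 nt with the score 13.8. The Zscan4f peak, the 325-nt peak of Zscan4c and the Zscan4b peaks of 175 and 150 nt each matched 8 other loci. The 100-nt peak of Zscan4b matched 2 and the 72-nt peak of Zscan4d 3, while the remaining new peaks of these genes matched none. In each of these 4 genes the Dox list also held 1 long peak over the DMSO peaks, which in Zscan4b ran from exonic base 728 to 1802 with a score of 120.0, where the 4 DMSO peaks scored between 10.7 and 12.1. The new peaks of these genes thus came with larger and better-scoring Dox peaks over the sites found in both lists. Of the 10 genes used as markers of 2C-like cells, 4 carried a DMSO peak and 10 a Dox peak, and 4 had a new peak. Of the 6 ESC markers (Pou5f1, Nanog, Sox2, Esrrb, Zfp42 and Sall4), 6 carried a peak in both lists and 0 a new one. Over all genes with a DMSO peak, 9.43% had a new peak, so 0 of 6 does not set the ESC markers apart. The 4 markers of 2C-like cells with a new peak are Zscan4 copies that share sequence. These marker counts are a description only. These are bulk cultures, in which fewer cells of a type and less RNA per cell cannot be told apart, and a peak also needs enough RNA of its gene to be called. RNA levels were not analysed here, so whether the new peaks in 2C genes move with the amount of RNA was not tested.

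Gm4027 and BB287469, genes of chromosome 12 with no assigned name, showed the same arrangement. Gm4027 had new peaks of 125 nt (score 21.5) and 25 nt (16.9) in its 5′ UTR, 375 and 300 nt from its 1 DMSO peak. BB287469, named after its values were seen, had 1 of 125 nt (15.2), also 375 nt 5′ of the DMSO peak. Each 125-nt peak matched 1 other locus.

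Outside these families, Atf2, which encodes a leucine-zipper transcription factor of the CREB family, held the longest new peak. It covered 525 exonic nt over 4 blocks of the coding sequence (chr2:73846196-73853891) with a score of 22.3. Flanking it were new peaks of 100 nt (11.6) on the 5′ side and 150 nt (13.6) on the 3′ side, which were 2225 and 825 nt from the nearest DMSO peak. All 3 held GGAC, and the 3 DMSO peaks of Atf2 were kept in the Dox list. None matched another locus, but the longest was searched as spliced sequence over its 4 blocks, so copies with introns could be missed. Clic4, which encodes a chloride intracellular channel protein, had 3 new peaks of 100, 75 and 25 nt with scores of 12.02, 12.5 and 11.5, of which the first lay 3075 nt from the nearest DMSO peak. The 4 genes with 4 new peaks each were Dst (a cytoskeletal linker), Zmiz1 (a transcriptional coregulator), Bicd2 (a dynein adaptor) and Zrsr1 (a U2AF-related RNA-binding protein), and of their 16 new peaks only the best of Zmiz1 (13.9) and of Dst (12.6) scored above 12. The Fthl17b and Fthl17c peaks of 300 nt, in ferritin-heavy-chain-like genes of chromosome X, scored 11.1 and 11.6 and matched 3 and 4 other loci.

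**Figure D1:**
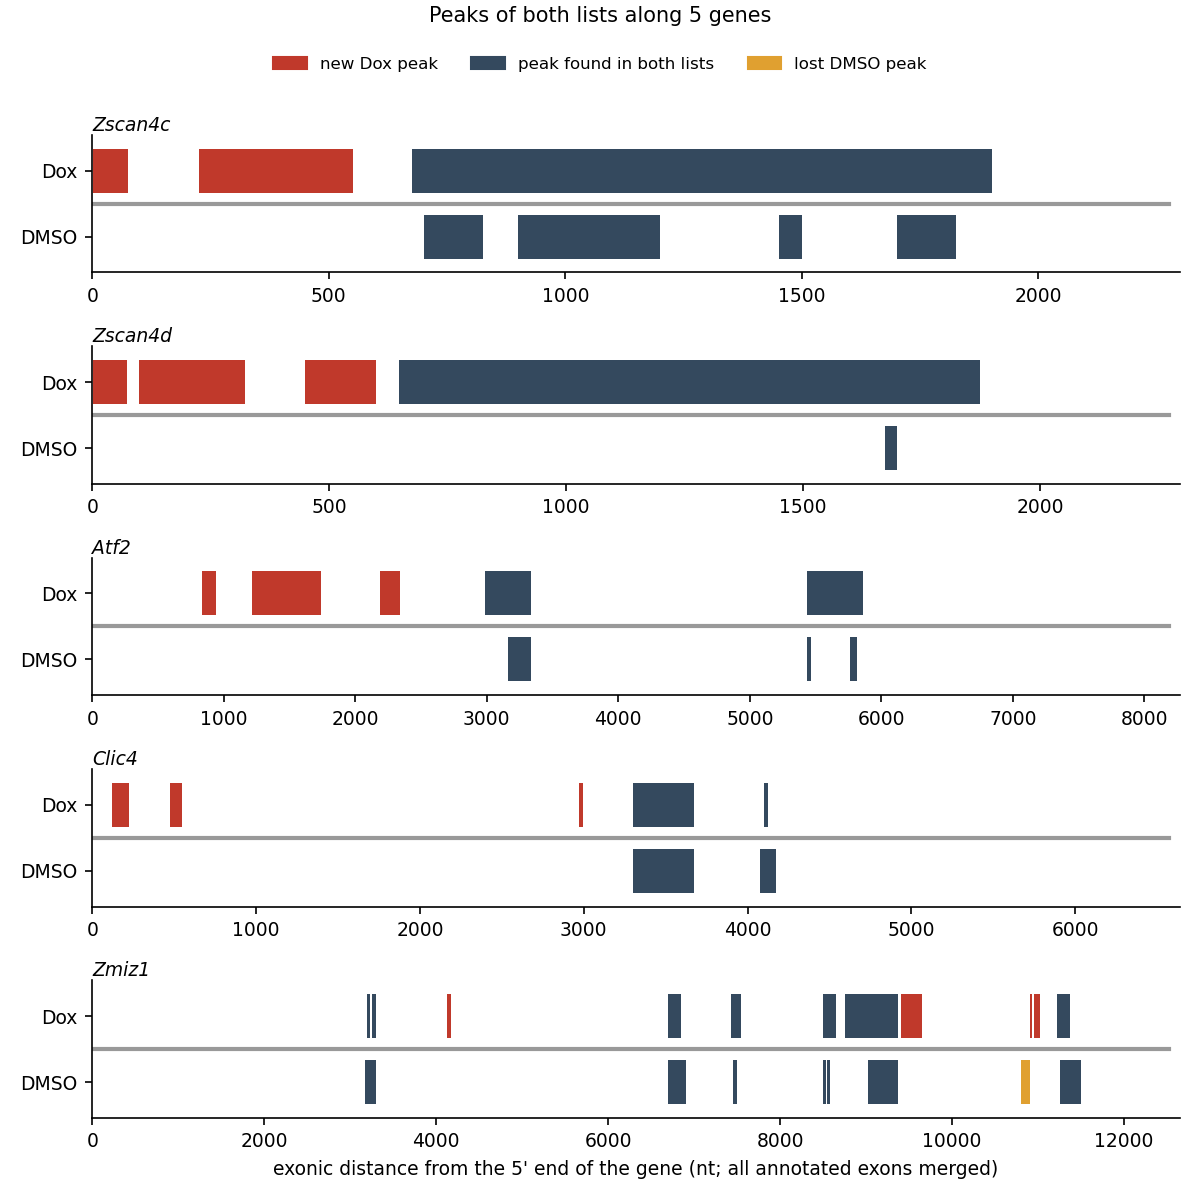
Peaks of the Dox list (upper row) and the DMSO list (lower row) along the merged exons of 5 genes, with exonic distance from the 5′ end in nt on the x axis of each panel; bars are peaks, red for new Dox peaks, dark for peaks found in both lists and yellow for DMSO peaks without a Dox peak on the same bases. In Zscan4c, Zscan4d and Atf2 the new peaks lie 5′ of every DMSO peak, while in Zmiz1 they are spread between sites found in both lists.

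Many new peaks lay near a DMSO peak of the same gene. The median distance along exons was 100 nt (quartiles 25 and 350 nt), and 328 of 701 (46.8%, 43.1 to 50.5) were less than 100 nt away, of which 108 touched the DMSO peak. A further 238 (34.0%, 30.5 to 37.5) were 100 to under 500 nt away, and 135 (19.3%, 16.5 to 22.3) were 500 nt or more away. The median distance to the nearest other Dox peak was also 100 nt, for the 643 new peaks whose gene had one. Along 1 transcript, the one with the longest coding sequence, the median distance was 75 nt (61 to 94) for the peaks that lay on it. RNA was fragmented before IP, and sites closer than a fragment are not resolved. The touching peaks are shown by Swap70 (an actin-bundling signalling protein; 75 nt, score 12.7) and Ppp1cc (a catalytic subunit of protein phosphatase 1; 50 nt, 12.5). At the other end, the new peak of the guidance receptor Robo1 (150 nt, score 11.5) lay 12918 exonic nt from the nearest DMSO peak, that of the trafficking GTPase Rab14 (175 nt, 12.4) 12054 nt, and that of Fam193b (25 nt, 10.4) 9077 nt. In these 3 genes the DMSO peak lay 3′ of the new one. Such distances run over all annotated exons of a gene merged, and a single mRNA need not hold all of them.

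The reverse set served as a comparison, namely the 5959 DMSO peaks (31.5% of the 18895 in the DMSO list) that shared no base with a Dox peak while their gene carried a Dox peak elsewhere; they are called lost peaks here. Their median length was 50 nt. They lay further from the other list, with a median of 375 nt and 15.3% (14.4 to 16.3) under 100 nt, and 1.83% (1.52 to 2.202) touched a Dox peak against 15.4% (12.9 to 18.3) of the new peaks. The lists differ in size, and the part of that in the distances was not tested. With the DMSO list reduced to its 13001 best-scoring peaks, 1748 Dox peaks counted as new, and their median distance was 248.5 nt.

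**Figure D2:**
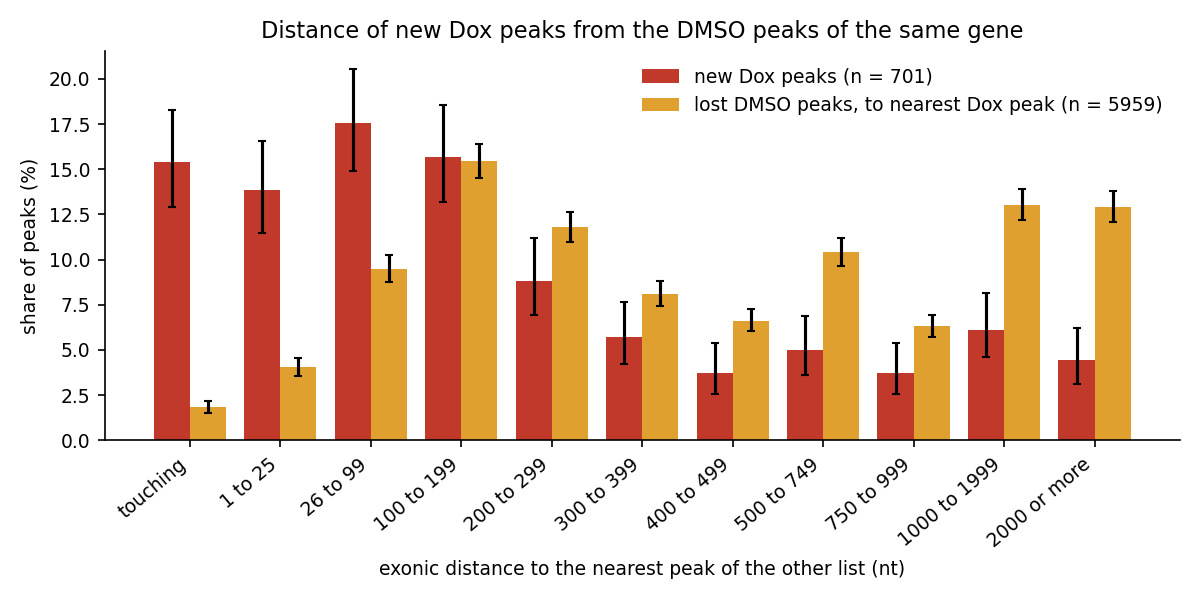
Share of peaks (%) by exonic distance (nt) to the nearest peak of the other list in the same gene, for the 701 new Dox peaks (red) and the 5959 lost DMSO peaks (yellow); whiskers are Wilson 95% intervals. New peaks exceed lost peaks in the 3 classes under 100 nt and fall below them from 200 nt on.

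The DMSO peak next to a new peak was usually still there. It was overlapped by a Dox peak for 459 of 701 new peaks (65.5%, 61.9 to 68.9), beside 56.95% (56.2 to 57.7) of all DMSO peaks and 63.2% (61.4 to 65.1) of the 2666 DMSO peaks in the same genes. For new peaks under 100 nt away the share was 59.8% (54.4 to 64.9), and for those 500 nt or more away 71.1% (63.0 to 78.1). Trim28 and Ppp1cc are examples of a new peak beside a DMSO peak that was not called with Dox. The nearest DMSO peak lay 3′ of the new peak in 396 cases, 5′ in 293 and at the same distance on both sides in 12. The 3′ share was 57.5% (53.8 to 61.1), and without the new peaks in 5′ UTRs it was 54.3% (50.3 to 58.1). Both peaks were in the same merged exon in 69.9% (66.4 to 73.2).

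The new peaks lay in 589 genes, of which 583 were protein-coding, and 500 of the 589 had 1 new peak, 70 had 2, 15 had 3 and 4 had 4. They are 9.43% of the 6244 genes with a DMSO peak. Genes with more DMSO peaks gained a new peak more often, from 5.28% (4.40 to 6.33) of the genes with 1 DMSO peak to 7.89% (6.86 to 9.05) with 2 or 3, 13.4% (11.6 to 15.4) with 4 to 6 and 21.8% (18.7 to 25.3) with 7 or more. Their median was 4 DMSO peaks, beside 2 over all genes with a DMSO peak, and their median exonic length 5280 nt beside 4824 nt. Of the 589 genes, 526 (89.3%, 86.5 to 91.6) kept at least 1 DMSO peak in the Dox list, beside 4781 of all 4844 genes with peaks in both lists (98.7%, 98.3 to 98.98). A gene with peaks in both lists and no kept DMSO peak has a new peak by the rule itself, so the 63 genes without one are all such genes in the series, and this share is a description. Among the 589, 400 (67.9%, 64.0 to 71.6) also had at least 1 DMSO peak without a Dox peak on it, against 2770 of the 4844 genes (57.2%, 55.8 to 58.6). By the rule the 63 genes are among the 400, and genes with more DMSO peaks have more that can be lost. This share is therefore a description too. In the 63 genes the lists had no site in common. They included Rab14, with 1 DMSO peak and 1 Dox peak, and Ephb3 (an ephrin receptor), with 3 and 1; Ephb3 was named after its values were seen.

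Along the mRNA, new peaks were more frequent at the 5′ end than both the shared and the lost peaks. Position was taken on the transcript with the longest coding sequence, on which 652 of the 701 could be placed by their middle base. In all, 66 lay in the 5′ UTR (10.1%, 8.04 to 12.7), in 62 genes, against 406 of 11494 shared peaks (3.53%). The difference was 6.59 percentage points (4.47 to 9.16), and it was 6.79 points (4.64 to 9.38) against the lost peaks, of which 3.34% lay there. First exons held 120 new peaks (18.4%, 15.6 to 21.6), in 106 genes, beside 7.97% of shared peaks (difference 10.4 points, 7.60 to 13.6) and 6.80% of lost peaks (11.6 points, 8.73 to 14.8). The single exon of an intronless transcript counts as a first exon, as in Zrsr1, Fthl17b and Fthl17c, and such peaks need not lie near the 5′ end. Transcripts with an exon junction held 624 of the 652 placed new peaks and 11266 of the 11494 shared peaks. Within 100 nt of the transcript start there were 32 (4.91%) against 104 shared peaks (0.905%), a difference of 4.003 points (2.58 to 5.95). By the rule, new peaks lie off the bases of DMSO peaks, so position is not wholly independent of it. In all, 15 features of position and motif were compared, and the intervals are not adjusted for that number.

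The difference at the 5′ end was also measured within classes of length and score. Among peaks of 25 nt, 38 of 374 new peaks were in the 5′ UTR (10.2%, 7.49 to 13.6) beside 3.58% of shared peaks (6.58 points, 3.71 to 10.2) and 4.05% of lost peaks. In the class of 26 to 50 nt the interval included 0 for the 5′ UTR (1.58 points, -1.87 to 7.45), but not for the first exon (15.3 points, 8.33 to 23.6). Among peaks of at most 50 nt with a score under 12, the shares were 9.03% and 3.72% in the 5′ UTR (5.32 points, 2.87 to 8.35) and 17.4% and 7.75% in the first exon (9.67 points, 6.28 to 13.5). Shared peaks weighted to the length and score classes of the new peaks would have had 3.60% in the 5′ UTR. Without the genes of the 2C list, whose 9 new peaks were all in Zscan4 genes, 63 of 643 new peaks (9.80%) were left in the 5′ UTR. Gm4027 is not in that list and stayed in. With lists of equal size the share was 6.90% against 3.40% of shared peaks (3.50 points, 2.31 to 4.86), and with Dox peaks scoring at least the list's median it was 15.3% against 3.87% (11.4 points, 5.89 to 19.3). New peaks far from any DMSO peak were in the 5′ UTR more often, 16.3% (10.8 to 23.8) at 500 nt or more, 12.1% (8.39 to 17.1) at 100 to under 500 nt and 6.37% (4.16 to 9.63) under 100 nt. The 5′ UTR lies at an end of the mRNA, so distance and position are not independent.

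The new peaks at the 5′ end came from genes of many kinds. Besides the Zscan4 genes, Gm4027 had the highest scores named here, 21.5 and 16.9 in its 5′ UTR. Lower-scoring ones included those of Actg1 (gamma-actin; 25 nt, score 14.3), Hnrnpf (a splicing regulator; 25 nt, 13.6) and Rap1b (a small GTPase; 150 nt, 12.6). The 5′ UTR peaks of Rab14, Ephb3 and Clic4 lay 12054, 2425 and 3075 nt from a DMSO peak. Further 5′ UTR peaks were those of Kdm5b (an H3K4 demethylase; 100 nt, 11.4), Ddx5 (an RNA helicase; 25 nt, 11.5) and Nop56 (a box C/D snoRNP core protein; 25 nt, 11.8). Genes of this paragraph other than the Zscan4 genes, Gm4027, Hnrnpf, Rab14 and Clic4 were named after their values were seen. Of the 66 new peaks in 5′ UTRs, 12 held GGAC (18.2%, 10.7 to 29.1), and for 58 the nearest DMSO peak lay 3′ (87.9%, 77.9 to 93.7). Little sequence lies 5′ of such a peak, so this side is largely set by the position.

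**Figure D3:**
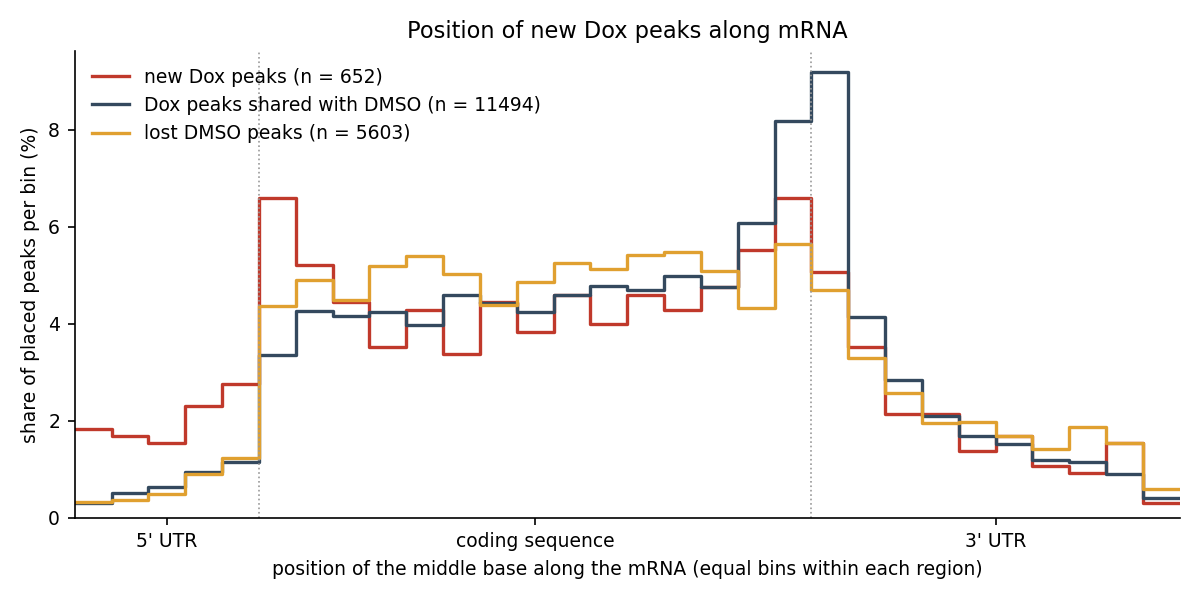
Share of placed peaks (%) in bins along the mRNA, with the 5′ UTR, coding sequence and 3′ UTR each divided into bins of equal width, for new Dox peaks (red), shared Dox peaks (dark) and lost DMSO peaks (yellow). New peaks exceed both other sets in every 5′ UTR bin and in the first coding bin (6.60% against 3.37% of shared peaks), and shared peaks exceed them in the first 3′ UTR bin (9.19% against 5.06%).

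**Figure D4:**
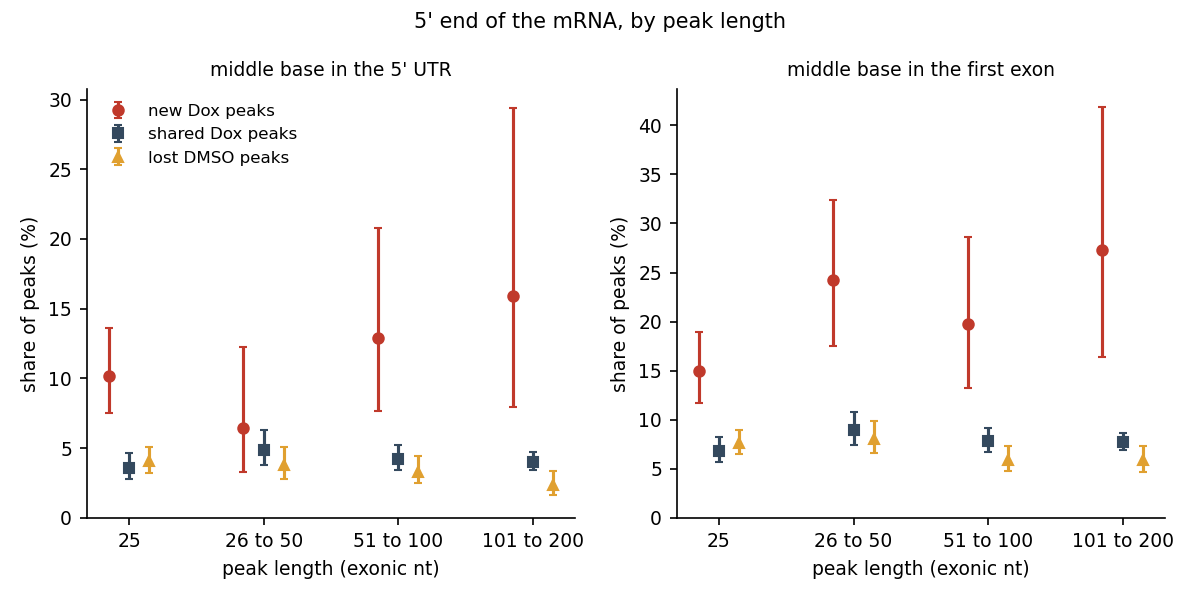
Share of peaks (%) whose middle base lies in the 5′ UTR (left) or the first exon (right), by peak length in exonic nt, for new Dox peaks (red circles), shared Dox peaks (dark squares) and lost DMSO peaks (yellow triangles), with Wilson 95% intervals. Peaks over 200 nt are not drawn, as only 9 new peaks could be placed there (0 in the 5′ UTR, with an upper bound of 29.9%, and 2 in the first exon). New peaks have the highest share in the 4 classes drawn in both panels, although in the 5′ UTR class of 26 to 50 nt the intervals overlap.

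At the other positions new peaks did not stand on the same side of both sets, or an interval included 0. The coding sequence held 457 new peaks (70.1%, 66.5 to 73.5) and 71.4% of shared peaks, a difference of -1.27 points (-4.98 to 2.22). The 3′ UTR held 129 (19.8%, 16.9 to 23.0), which was 5.32 points below shared peaks (25.1%; interval of the difference -8.31 to -2.00). Near the stop codon, within 200 nt of it, were 108 of 649 new peaks (16.6%, 14.0 to 19.7) against 25.5% of shared peaks (-8.81 points, -11.6 to -5.65) and 13.1% of lost peaks (3.58 points, 0.763 to 6.76). Among 25-nt peaks the stop codon shares were 19.5% and 20.5% for new and shared peaks (-0.951 points, -5.20 to 3.79). The last exon held 40.8% (37.1 to 44.6) of new peaks, 46.4% of shared peaks (-5.57 points, -9.38 to -1.64) and 34.4% of lost peaks (6.37 points, 2.46 to 10.4). Within 100 nt of an exon junction were 41.8% (38.0 to 45.7) of new peaks, 32.8% of shared peaks (9.03 points, 5.12 to 13.03) and 51.2% of lost peaks (-9.40 points, -13.4 to -5.28). Among 25-nt peaks the junction shares were 42.1% for new and 41.1% for shared peaks (0.971 points, -4.60 to 6.67). Exon length lay between the others too, with a median of 666 nt for the exon around a new peak, 939 nt around a shared and 456 nt around a lost peak. Short internal exons under 200 nt, where m6A is usually sparse, held 21.8% (18.8 to 25.1) of new peaks, 19.9% of shared peaks and 34.6% of lost peaks, so that new peaks were 12.8 points below lost peaks (interval of the difference -16.1 to -9.28).

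GGAC was found on the peak's strand in 160 of 701 new peaks (22.8%, 19.9 to 26.1), and its reverse complement GTCC, searched on the same strand as a measure of chance matches, in 14.7% (12.3 to 17.5). Of the shared peaks 57.9% held GGAC, but they were longer and scored higher. Weighted to the length and score classes of the new peaks, their share was 26.6%. Within each length class the interval of the difference from shared peaks included 0, while among peaks of at most 50 nt with a score under 12 the shares were 15.6% of new and 21.1% of shared peaks (-5.43 points, -8.80 to -1.65). Among 25-nt peaks GGAC was in 12.7% of new, 15.5% of shared and 13.2% of lost peaks, and the difference of new from shared was -2.81 points (-6.22 to 1.13). With 50 exonic nt added on each side, GGAC was within reach of 56.5% (52.8 to 60.1) of new peaks, and of 50.9% of new and 50.1% of shared peaks in the 25-nt class (0.796 points, -4.60 to 6.17). DRACH, which a GGAC followed by any base but G also spells, was in 370 new peaks (52.8%, 49.1 to 56.5). In the 25-nt class it was in 36.9% of new peaks, 46.4% of shared peaks (-9.48 points, -14.6 to -4.14) and 42.0% of lost peaks. A motif in a window is a description of its letters and not a methylated site.

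**Figure D5:**
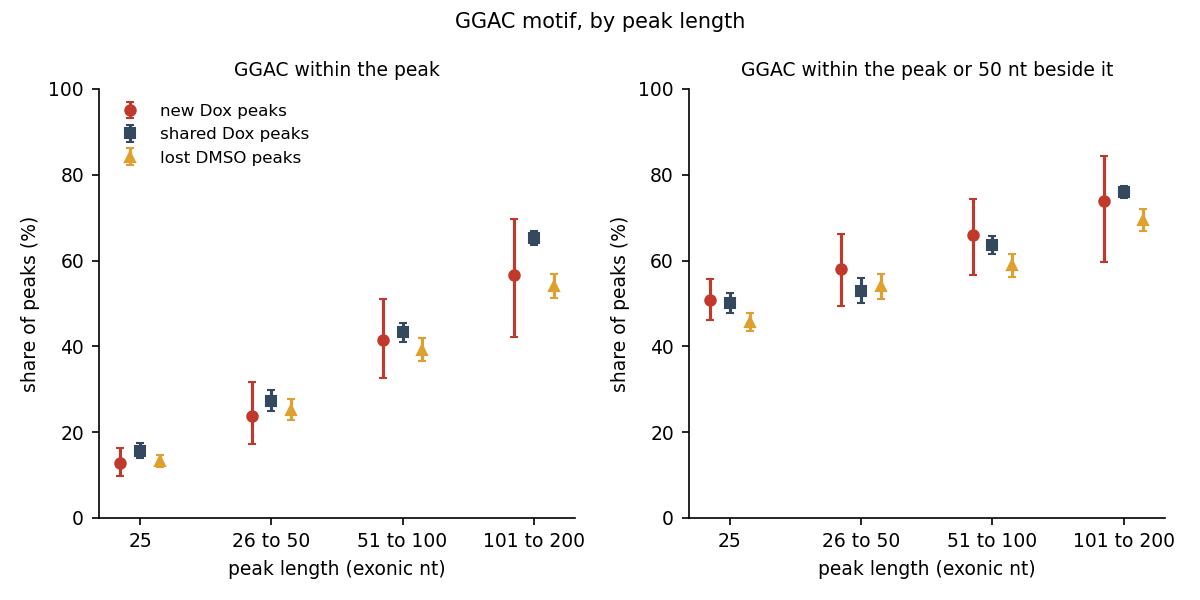
Share of peaks (%) with GGAC within the peak (left) or within the peak and 50 exonic nt on each side (right), by peak length in exonic nt, for new Dox peaks (red circles), shared Dox peaks (dark squares) and lost DMSO peaks (yellow triangles), with Wilson 95% intervals. Peaks over 200 nt are not drawn. The share rises with length in all 3 sets, and the interval of the new peaks overlaps that of the shared peaks in each class.

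Gene groups are given as genes with a new peak of genes with a DMSO peak, against 9.43% over all genes. The groups and genes were chosen with earlier results of these data known, and counts of this size are a description only. Of 5 genes in the 2C list with a DMSO peak, 4 had a new peak, which were the Zscan4 genes above with 9 peaks. The m6A machinery had 1 of 16, Zc3h13, with 2 peaks of 25 nt (score 11.1) and 75 nt (10.4) that were 50 and 75 nt from DMSO peaks. The CCR4-NOT complex and other decay factors, through which YTHDF2 can remove methylated mRNA, had 2 of 22, the subunits Cnot3 (25 nt, 12.3) and Cnot10 (125 nt in the 5′ UTR, 11.9). Pluripotency factors had 1 of 21, the T-box factor Tbx3, with a 75-nt peak in the 5′ UTR (10.4).

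Factors that hold back the 2C program had a new peak in 4 of 28 genes. Among them were Trim28, the corepressor recruited by zinc-finger proteins to transposons (25 nt, score 11.9, 25 nt from a DMSO peak), the deacetylase Hdac1 (25 nt, 10.4, 50 nt) and the maintenance methyltransferase Dnmt1 (100 nt, 10.96, 50 nt). Translation factors and ribosomal proteins had 14 of 119, led by Rpl36 (25 nt, 17.7, in the coding sequence, matching 5 other loci). Chromatin remodellers and bromodomain proteins had 5 of 40, led by Brd2 (11.4), histone methyltransferases and demethylases 3 of 36, led by Kdm2b (11.9), and splicing factors 5 of 61, led by Hnrnpf. The Zfp zinc-finger genes had 11 of 143, led by Zfp91 (11.3), and kinesins with centrosomal Cep genes 3 of 50, led by Cep57l1 (12.3). DNA replication and repair had 3 of 31, led by the damage mediator Mdc1 (10.9), ubiquitin ligases and proteases 5 of 61, led by Ubr4 (11.4), and LIF, FGF, Wnt and TGF-beta signalling 2 of 40, led by Smad1 (10.9). Apart from the 2C list, the 95% interval of each group's share included 9.43%. The genes with a new peak in the 2C list are Zscan4 copies that share sequence. They are not independent units, so the interval of that list is not read as setting it apart.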

How the data were processed

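The authors filtered reads with fastp 0.19.4, aligned them to mm10 with HISAT2 2.2.1 and called peaks of IP over input with exomePeak2, whose version and settings, like the way replicates were combined, are not given in the sources used here. The deposited lists hold, for each peak, exon blocks and a −log10 p-value (score); whether it is adjusted is not stated. Read depth and RNA levels were not analysed here.

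Peaks were compared by exon block and strand in Python 3.11.15 with numpy 2.4.6, using GENCODE M21. Distances run along the merged exons of a gene. Other loci were searched with blastn 2.17.0. Shares have Wilson and differences Newcombe 95% intervals. The class, distance and position steps were tested on simulated peaks. Figures were drawn with matplotlib 3.10.9.

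The members, gene lists and comparisons were chosen with earlier results of these data known. Named were the 10 best-scoring and 5 longest new peaks, up to 10 genes with 3 or more, the best-scoring of each list, all in the m6A, CCR4-NOT, pluripotency, 2C and 2C repressor lists, and the 3 largest and 3 smallest distances; some of the genes so chosen are not reported here. Alternatives covered list size, the definition of new, strand, gene assignment, gene type, score, near-identical loci, motif, stop codon window and transcript. With 1 list per treatment, no test between treatments could be made.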

Additional observations from a re-analysis of the deposited data

How the results depend on the processing

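No paired analysis was possible because the 2 replicates of a treatment were merged in the deposited list, and for the same reason no replicate could be left out. Of 90 alternative values of 9 results, 65 stayed within the main interval (for the number, within 1.5-fold) and 25 moved; the cause was not tested. With lists of equal size there were 1748 new peaks, with a median distance of 248.5 nt, a median length of 50 nt, 36.2% with GGAC, 6.90% in the 5′ UTR and 13.5% in the first exon. Asking for at least 100 nt from every DMSO peak left 373, at a median of 325 nt, with 13.6% in the 5′ UTR and 22.5% in the first exon. Dox peaks scoring at least the list's median gave 117, at a median of 200 nt and a length of 50 nt, with 31.6% holding GGAC, 11.9% near the stop codon, 15.3% in the 5′ UTR, 25.2% in the first exon and 91.6% of their genes keeping a DMSO peak. Counting peaks with under 50% of bases shared as new gave 29.8% with GGAC and a median length of 50 nt. DRACH in place of GGAC gave 52.8%, and 50 nt of added sequence 56.5%. Stop codon windows of 100 and 400 nt gave 10.5% and 31.1%. On the transcript with most exonic bases 66.4% lay in the coding sequence. The alternatives for the 5′ UTR and first exon, the removal of 2C genes and that transcript were chosen after seeing the data.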
